A study of Mus musculus with 158 samples.

Results

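Open chromatin was examined at 7 mouse loci that serve B cells: Cd79a, Cd79b, Ms4a1, Cd22, Cr2, Fcer2a and Blk. The loci were chosen by gene name, and each was taken as its gene body in mm10 (GENCODE vM21) with 20 kb on both sides. They are 7 of 21755 protein-coding genes on the autosomes and chromosome X. DNase-seq maps open chromatin from the fragments that DNase I releases from nuclei, and a hotspot is a stretch where the authors called such signal at an FDR of 5%. At each locus 3 measures were read from every hotspot set, namely the number of hotspots, the base pairs (bp) they covered, and whether a hotspot lay within 250 bp of the gene start.

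The sets came from F1 hybrid mice, all with a C57BL/6J dam. The strain of the sire follows the x in the name of each hybrid, in short form. B6x129 had a sire of the SvImJ substrain, B6xC3H one of C3H/HeJ, B6xCAST one of CAST/EiJ, B6xPWK one of PWK/PhJ, and B6xSPRET one of SPRET/EiJ. The labels name no transgene and no treatment. Liver, kidney and lung were whole organs, often pooled from several mice. B cells were prepared from femoral bone marrow of females 8 weeks of age by magnetic depletion of cells bearing CD43 or CD11b (Mac-1), which leaves B lineage cells mixed with any other cell that has neither antigen. All libraries of 1 hybrid and tissue, 2 to 14 of them and 138 in all, were pooled by the authors into 1 set of hotspots, which gives 20 adult sets. The 5 hybrids therefore stand in for replicates of a tissue, and the spread between them holds genetic as well as technical differences. B6xCAST mouse embryonic stem cells (mESCs), a cultured line, gave 1 further DNase-seq set and 1 CTCF ChIP-seq set. The adult tissues were also covered by 17 RNA-seq samples. Those of liver, kidney and lung were of B6xPWK, B6xSPRET and B6xC3H, and those of B cells of the same hybrids and B6xCAST. No RNA-seq sample was of B6x129.

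CD79A and CD79B are the signalling subunits that pair with membrane immunoglobulin to form the B cell receptor. BLK is a kinase of the SRC family that acts just beneath that receptor, so it is not itself a surface protein. CD22 binds sialic acids and dampens receptor signalling, whereas CR2 (CD21) binds complement fragments on antigen and lowers the threshold for activation. MS4A1 (CD20) spans the membrane of B cells from the pre-B stage on. FCER2A (CD23) is the low-affinity IgE receptor and, like CR2, is best known from mature follicular B cells.

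The sets differed in size, and B cells had the smallest ones. B cell sets held 78387 to 156078 hotspots over 28.95 to 68.73 Mb, liver sets 211762 to 295565, kidney sets 186061 to 238917 and lung sets 152006 to 281978. B6x129 liver was the largest set and B6xC3H B cells the smallest. Read depth is not a column of the hotspot files and was not used here, so sets are described by their size. The labels were checked against lists of marker genes. Start hotspots were found at 0 of 5 liver genes and 0 of 5 kidney genes in every B cell set, at 4 of 5 embryonic stem cell genes in the mESC set, at 5 of 5 liver genes in every liver set and at 5 of 5 lung genes in every lung set. Of 5 kidney genes, 3 to 4 had one in the kidney sets, 0 to 1 in liver sets and 0 in lung sets. Some lists were also open outside their own tissue. Of 5 liver genes, 3 to 4 had a start hotspot in kidney sets and 1 to 3 in lung sets. Of 5 lung genes, 0 to 1 had one in B cell, liver and kidney sets. Lung sets had one at 0 to 3 of 5 embryonic stem cell genes. In B cell sets, 3 to 5 of 8 genes of early B cell development, 2 to 4 of 10 T and NK cell genes, 2 to 5 of 10 myeloid genes and 0 to 3 of 8 erythroid genes had a start hotspot. The list of early B cell development differed little in the organs, with 2 to 4 genes in liver sets, 3 in kidney sets and 3 to 4 in lung sets. Cd2 and Lck (T and NK cell list) had one in 5 of 5 B cell sets and Adgre1 (myeloid list) in 3 of 5. Of the 15 other sets, 9 had one at Cd2, 5 at Lck and 12 at Adgre1. Elane had none in B cells, and Cd4 and Csf1r had none in any adult set. Itgam, which encodes the CD11b antigen used for depletion, had a start hotspot in 5 of 5 B cell sets and in 7 of the 15 others. Its window was called higher in B cells (6613 ± 2351 bp against 3313 ± 2188 bp, SD, n = 5 and 15, adjusted p = 0.0377, exact permutation test). The myeloid list as a whole did not follow Itgam. Of its 10 genes, 2 were called higher and 1 lower in that test, with a median difference of −404.7 bp. The part of cells other than B cells in the results at the 7 loci was not tested.

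Promoter sequences are shown first because the starts of 5 of the 7 genes (Cd79a, Cd79b, Cd22, Fcer2a and Blk) separated B cells from kidney. None of the 7 starts separated B cells from every organ. Promoters from RefSeq (GRCm38.p6), from 250 bases before to 50 bases after a start, were matched to 4 of the 7 genes. Promoters of Cd79b, Ms4a1 and Blk are not shown here. Capitals mark matches to 8 short motifs, searched on both strands: an octamer (ATGCAAAT), an EBF core (CCCNNGGG), PU.1 (GAGGAAGT), ETS (CCGGAAGT), an E-box of the E2A type (CAGGTG), an ETS-IRF composite (GGAANNGAA), NF-kB (GGGANTTCC) and a TATA box (TATAAA). PU.1 and ETS share the letters GGAAGT, and the composite also begins with GGAA. Each promoter is written in the direction of transcription, with the number of adult sets that had a hotspot over it.
Cd79a, chr7:24897247-24897546, forward strand, 5 B cell, 2 liver, 0 kidney and 4 lung sets: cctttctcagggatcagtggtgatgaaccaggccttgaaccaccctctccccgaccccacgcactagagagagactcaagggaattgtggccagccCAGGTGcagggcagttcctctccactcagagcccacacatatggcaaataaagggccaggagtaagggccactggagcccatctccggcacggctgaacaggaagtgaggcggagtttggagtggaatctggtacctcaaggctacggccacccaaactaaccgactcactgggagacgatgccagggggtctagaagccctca
Cd22, chr7:30878979-30879278, reverse strand, 5 B cell, 0 liver, 0 kidney and 2 lung sets: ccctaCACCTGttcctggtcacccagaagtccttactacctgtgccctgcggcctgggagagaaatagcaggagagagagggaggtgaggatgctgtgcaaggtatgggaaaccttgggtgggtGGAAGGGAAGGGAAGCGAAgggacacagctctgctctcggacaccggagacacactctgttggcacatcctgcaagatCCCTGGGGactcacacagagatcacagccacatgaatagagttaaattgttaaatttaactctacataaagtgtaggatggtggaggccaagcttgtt
Fcer2a, chr8:3694125-3694424, reverse strand, 5 B cell, 0 liver, 0 kidney and 5 lung sets: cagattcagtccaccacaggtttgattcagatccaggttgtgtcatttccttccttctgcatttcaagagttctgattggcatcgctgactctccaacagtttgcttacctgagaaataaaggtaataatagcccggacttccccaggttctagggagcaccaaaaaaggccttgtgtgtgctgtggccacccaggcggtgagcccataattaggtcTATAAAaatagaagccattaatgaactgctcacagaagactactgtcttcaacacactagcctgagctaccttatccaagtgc
Fcer2a, second RefSeq promoter, chr8:3690812-3691111, reverse strand, 0 B cell, 0 liver, 0 kidney and 5 lung sets: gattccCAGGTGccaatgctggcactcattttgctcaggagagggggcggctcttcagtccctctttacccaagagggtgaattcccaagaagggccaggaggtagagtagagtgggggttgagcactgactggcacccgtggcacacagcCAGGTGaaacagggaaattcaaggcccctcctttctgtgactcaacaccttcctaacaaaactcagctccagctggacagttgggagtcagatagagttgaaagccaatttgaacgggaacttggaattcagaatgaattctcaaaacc
Cr2, chr1:195176670-195176969, reverse strand, 5 B cell, 5 liver, 5 kidney and 5 lung sets: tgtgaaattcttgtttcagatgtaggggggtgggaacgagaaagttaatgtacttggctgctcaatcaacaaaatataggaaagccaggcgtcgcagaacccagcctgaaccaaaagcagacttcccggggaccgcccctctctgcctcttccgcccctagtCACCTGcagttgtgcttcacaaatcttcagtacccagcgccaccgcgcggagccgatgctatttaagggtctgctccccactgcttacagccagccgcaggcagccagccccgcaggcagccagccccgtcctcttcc

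The E-box occurred in the promoters of Cd79a, Cd22 and Cr2 and in the second promoter of Fcer2a, against 20.2% of all 32851 RefSeq promoters. The Cd22 promoter also held overlapping copies of the ETS-IRF composite (8.24% of promoters) and an EBF core (13.7%). The promoter at the Fcer2a start held a TATA box (13.6%) and no other motif searched. The octamer (1.74%), PU.1 (3.2%), ETS (3.89%) and NF-kB (1.68%) letters were not in these windows, and another RefSeq entry for Fcer2a, which held none of the 8 motifs, had no hotspot in any adult set. The RefSeq promoter of Cd22 lies 1314 bp inside the gene as GENCODE draws it. Both Cd22 starts had hotspots in all 5 B cell sets.

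Start hotspots were present in all 5 B cell sets at all 7 loci. Across the genome, 48.1% of protein-coding genes had a start hotspot in all 5 B cell sets, so that presence in B cells alone does not set the 7 apart. What differed was the pattern over the organs. In kidney, 5 of the 7 starts (Cd79a, Cd79b, Cd22, Fcer2a and Blk) had no hotspot in any of the 5 sets, whereas 0.818% of all genes combined a start hotspot in all 5 B cell sets with none in kidney. This combination was picked after the values had been seen. Ms4a1 had start hotspots in the B6xC3H and B6xPWK kidney sets only, 82 and 67 bp wide with −log10 FDR of 1.621 and 1.697, just above the authors' threshold.

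Lung stood between B cells and kidney. Start hotspots were found in all 5 lung sets at Ms4a1, Cd22, Cr2, Fcer2a and Blk, and in 4 of 5 at Cd79a and Cd79b, where B6xC3H, the smallest lung set, was the exception. At Cd22, Fcer2a and Blk the start was open in every lung set and in no kidney set, a pattern held by 1.21% of all genes. The pattern was not among the planned comparisons and is a description. Its presence in lung depended on the number of hotspots. Among the 75000 highest-scoring hotspots of each set, the 5 B cell sets still had a start hotspot at all 7 genes, but lung had one in 0 sets at Cd22, 1 at Blk, 2 at Fcer2a and Cd79b, 3 at Cd79a and 4 at Ms4a1. B cell sets held 78387 to 156078 hotspots and lung sets 152006 to 281978. In every hybrid the cut thus kept a smaller part of the lung set than of the B cell set. The loss in lung cannot be told apart from this effect of the cut. At the start base itself lung had a hotspot in 5 sets at Cd22, 4 at Blk and 3 at Fcer2a. No member met the stricter pattern of a start hotspot in all 5 B cell sets and none of the other 15, which 0.0506% of genes met. Leaving Cr2 aside, lung start hotspots were at most 881 bp wide with −log10 FDR from 2.092 to 33.74, while those of B cells were 370 to 6594 bp wide with −log10 FDR from 27.7 to the ceiling of 100. Scores were called within each set and sets differ in size, so ranks within sets are also given. The start hotspot of Blk scored above 84 to 91.5% of all hotspots of the same B cell set, and above 42.3 to 65.5% of those of the same lung set. At Ms4a1 the ranks overlapped, from 86.3 to 91.5% in B cells and from 50.1 to 90% in lung, and at Cd79a they ran from 86.3 to 94.2% and from 45.3 to 84.9%. The 86.3% at both genes came from B6xCAST B cells, where the start hotspot was at the ceiling of 100. Of that set 13.7% of hotspots shared the ceiling, so none could rank higher.

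**Figure D1:**
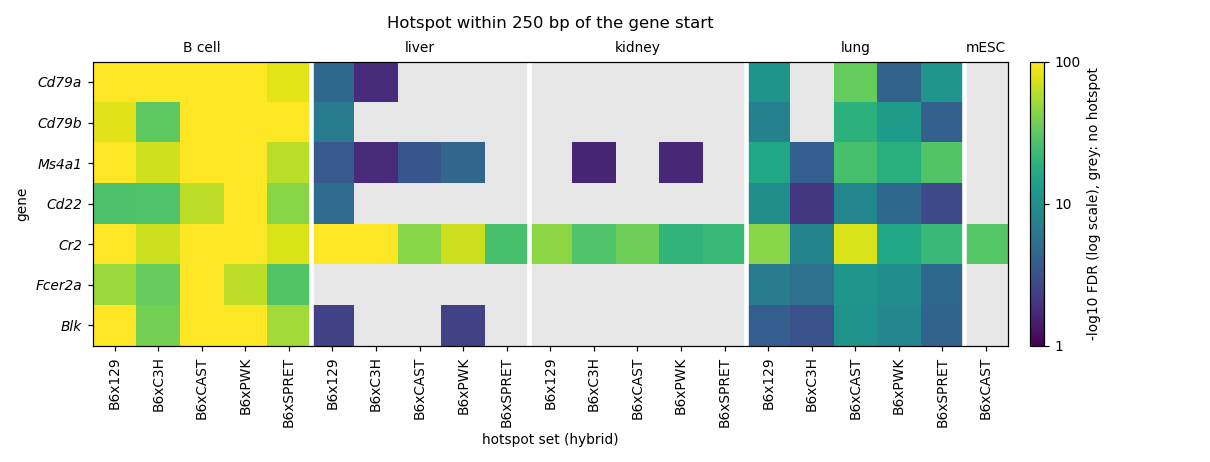
Each cell of the map gives the −log10 FDR, on a log colour scale, of the highest-scoring hotspot within 250 bp of the start of 1 of the 7 genes (vertical axis) in 1 of the 20 adult sets or the mESC set (horizontal axis), and grey marks a set with no hotspot there. B cell sets are filled for all 7 genes, kidney sets are grey apart from Cr2 and 2 sets at Ms4a1, and lung sets are filled except for Cd79a and Cd79b in B6xC3H.

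The liver sets differed in their start hotspots. B6x129 liver had one at 6 of the 7 genes, B6xC3H and B6xPWK liver at 3, B6xCAST liver at 2 and B6xSPRET liver at 1. Fcer2a was the gene without one in B6x129 liver, and no other liver set had one there either. The B6x129 liver hotspots at Cd79a, Cd79b, Ms4a1, Cd22 and Blk were 156 to 284 bp wide with −log10 FDR of 2.474 to 6.595. B6x129 liver also had the most hotspots of any set (295565), and start hotspots at 3 of 10 T and NK cell genes and 6 of 10 myeloid genes. B6xPWK liver had the same 3 and 6, B6xC3H liver 2 and 4, B6xCAST liver 0 and 7, and B6xSPRET liver 1 and 4. With 1 pooled set per hybrid, hybrid and set cannot be told apart. Lung sets had 1 to 8 of 10 T and NK cell genes and 3 to 6 of 10 myeloid genes, and kidney sets 0 to 1 and 0 to 4. Whether blood or resident leukocytes in the organs gave these hotspots was not tested, and in a whole organ fewer B cells and less open chromatin per B cell cannot be told apart.

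Cr2 was the exception at the start. Its start hotspot was present in all 20 adult sets, as was that of 44.8% of all genes, and it was also the only 1 of the 7 starts with a hotspot in the mESC DNase-seq set (615 bp, −log10 FDR 29.89). The CTCF ChIP-seq set of mESCs had a peak over the same start (566 bp, −log10 FDR 8.534). In B cells the Cr2 start hotspot was 602 to 2574 bp wide, in liver 391 to 917 bp, in kidney 459 to 568 bp and in lung 357 to 493 bp. The B cell and liver ranges overlapped, and every B cell width exceeded every kidney and lung width.

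Coverage of the whole windows was higher in B cells at all 7 loci. By the exact permutation test over the 15504 choices of 5 of 20 sets, with Benjamini-Hochberg adjustment over 21495 genes, all 7 members had an adjusted p below 0.05 in the direction of B cells, where 4.22% of genes did. The general trend ran the other way, since 36.2% of genes were called lower in B cells and the median gene had 0.665 times the coverage of the other tissues (a median difference of −870.5 bp). That trend depended on the scale, since 907 genes were called higher and 7777 lower in bp, but 7767 higher and 4282 lower in bp per Mb covered by the set, where all 7 members were again called higher. The median difference of the 7 members was 5471 bp and their median ratio 3.102. The genes are well-known B cell genes, chosen with earlier results of these data in view, and their count is a description of this choice. Within hybrids, B cells had the highest coverage of the 4 tissues in 32 of 35 pairs of gene and hybrid. The share over all genes was not taken for this count, which rests on the same bp values and describes the 7 members only.

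**Figure D2:**
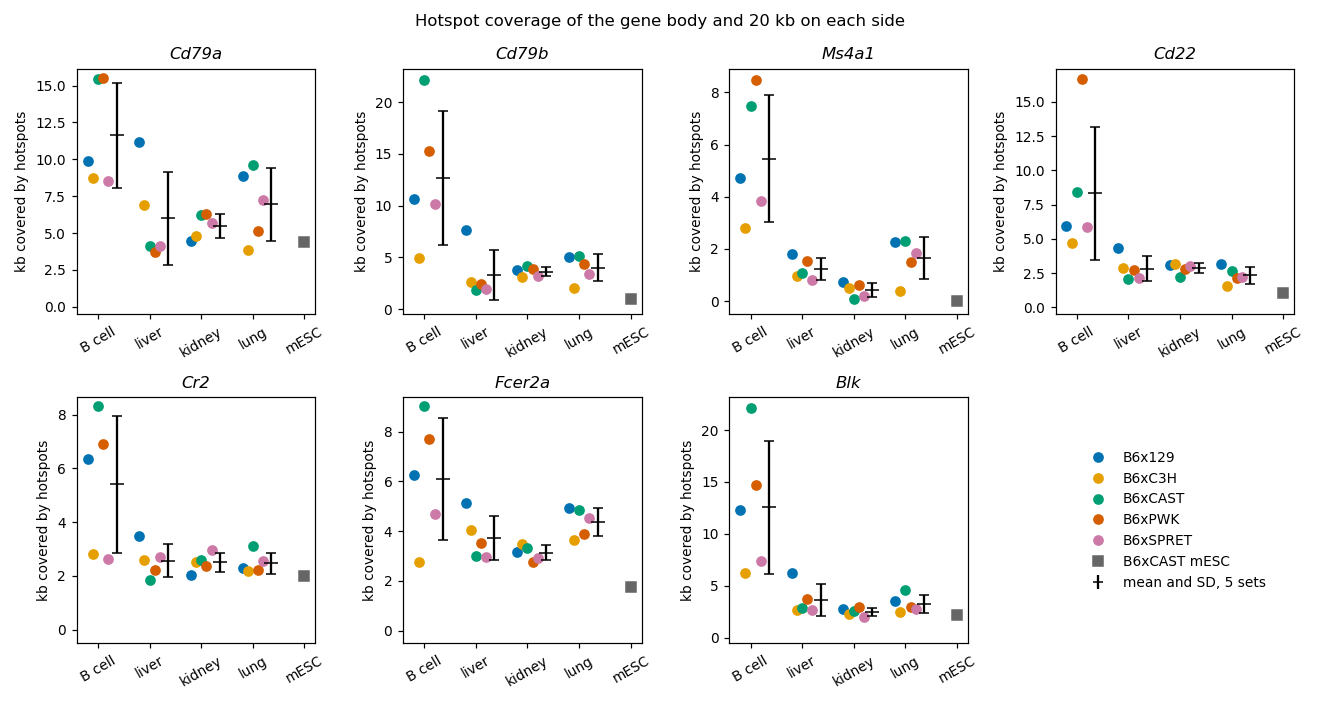
Points give the kb covered by hotspots (vertical axis) in the gene body and 20 kb on each side in each adult set, coloured by hybrid and grouped by tissue, black marks give the mean and SD of 5 sets, and squares the single mESC set. B cell points are spread widely, with B6xCAST or B6xPWK highest at every gene, and at Ms4a1 and Cd22 the lowest B cell point lies above all points of the other tissues.

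The receptor subunits come first. Cd79a (ENSMUSG00000003379.7) occupies chr7:24897381-24902197 on the forward strand. Its window was covered over 9891 bp in B6x129, 8732 bp in B6xC3H, 15415 bp in B6xCAST, 15517 bp in B6xPWK and 8515 bp in B6xSPRET B cells. Liver sets had 11183, 6905, 4112, 3732 and 4094 bp, kidney sets 4432, 4817, 6210, 6279 and 5692 bp and lung sets 8867, 3823, 9618, 5151 and 7235 bp in that order. B cells were higher on average, but the groups overlapped, since B6x129 liver (11183 bp) exceeded 3 of the B cell sets. The mean was 11614 ± 3555 bp in B cells and 6143 ± 2269 bp elsewhere (SD, n = 5 and 15), a ratio of 1.891 with an adjusted p of 0.0123 (exact permutation test). Without B6xPWK the difference was 4223 bp with an adjusted p of 0.074. Part of this window belongs to neighbours, as the starts of Rps19 and Arhgef1 carried regions open in all 20 sets. Over the gene body alone the difference was 2339 bp (adjusted p = 0.00113, exact permutation test).

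Cd79b (ENSMUSG00000040592.11) lies on the reverse strand at chr11:106311341-106314762, next to Gh and Scn4a. Coverage in B cells was 10625 bp in B6x129, 4948 bp in B6xC3H, 22185 bp in B6xCAST, 15254 bp in B6xPWK and 10171 bp in B6xSPRET. Liver sets had 7655, 2622, 1840, 2406 and 1957 bp, kidney sets 3731, 3130, 4118, 3899 and 3235 bp and lung sets 5054, 2026, 5176, 4309 and 3413 bp in that order. B6xC3H B cells fell within the ranges of liver and lung. The means were 12637 ± 6467 and 3638 ± 1534 bp (SD, n = 5 and 15), with a ratio of 3.473 and an adjusted p of 0.00313 (exact permutation test). In B6xCAST B cells the hotspot at the start extended over 6594 bp and took in the whole gene.

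Blk (ENSMUSG00000014453.4), the kinase, occupies chr14:63372836-63417037 on the reverse strand and is the longest of the 7 genes (44202 bp). B cell coverage was 12262, 6227, 22126, 14747 and 7425 bp in B6x129, B6xC3H, B6xCAST, B6xPWK and B6xSPRET. Values were 6234, 2677, 2881, 3769 and 2722 bp in liver, 2742, 2255, 2610, 2952 and 2047 bp in kidney and 3544, 2486, 4628, 2940 and 2776 bp in lung. Only B6x129 liver, at 6234 bp, reached the lowest B cell set. The ratio of means was 3.985 (12557 ± 6381 against 3151 ± 1064 bp, SD, n = 5 and 15, adjusted p = 0.00188, exact permutation test).

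Cd22 (ENSMUSG00000030577.14), the inhibitory co-receptor, lies at chr7:30865402-30880342 on the reverse strand. Its B cell coverage was 5916, 4684, 8437, 16656 and 5891 bp in the same order of hybrids, with B6xPWK far above the rest. Liver had 4354, 2884, 2075, 2725 and 2136 bp, kidney 3057, 3191, 2252, 2794 and 3047 bp and lung 3194, 1569, 2628, 2110 and 2203 bp. The other 15 sets ran from 1569 to 4354 bp, below every B cell set. The ratio of means was 3.102 (8317 ± 4858 against 2681 ± 670.6 bp, SD, n = 5 and 15, adjusted p = 0.00118, exact permutation test).

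Ms4a1 (ENSMUSG00000024673.9), the gene of CD20, occupies chr19:11249675-11266241 on the reverse strand between the related genes Ms4a12 and Ms4a5. Outside B cells this was the emptiest window. B cells had 4722, 2798, 7467, 8490 and 3849 bp in the same order, against 1791, 952, 1091, 1529 and 825 bp in liver, 718, 503, 72, 606 and 187 bp in kidney and 2273, 374, 2288, 1489 and 1861 bp in lung. The groups did not overlap, and kidney was the lowest of the organs on average. The ratio of 4.951 was the largest among the 7 loci (5465 ± 2420 against 1104 ± 729 bp, SD, n = 5 and 15, adjusted p = 0.00118, exact permutation test). Ms4a1 and Cd22 were thus 2 of 7 members with every B cell set above every other set, compared with 0.465% of genes.

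At Cr2 and Fcer2a, the receptors of mature cells, the differences in bp were the smallest of the 7. Cr2 (ENSMUSG00000026616.15), at chr1:195136811-195176716 on the reverse strand, had 6361, 2823, 8314, 6905 and 2637 bp in B cells in the same order of hybrids, and 1841 to 3483 bp elsewhere. There were 3483, 2609, 1841, 2224 and 2697 bp in liver, 2023, 2529, 2603, 2364 and 2980 bp in kidney and 2297, 2172, 3124, 2220 and 2543 bp in lung. B6xC3H and B6xSPRET B cells lay inside the range of the organs and the other 3 above it. The means were 5408 ± 2547 and 2514 ± 433.5 bp (SD, n = 5 and 15, ratio 2.151, adjusted p = 0.0152, exact permutation test). Fcer2a (ENSMUSG00000005540.10), at chr8:3681737-3694175 on the reverse strand, had 6263, 2774, 9012, 7702 and 4698 bp in B cells and 2776 to 5117 bp elsewhere. These were 5117, 4046, 3020, 3511 and 2945 bp in liver, 3149, 3495, 3337, 2776 and 2925 bp in kidney and 4916, 3656, 4856, 3883 and 4545 bp in lung, and B6xC3H B cells had less than any organ set. The means were 6090 ± 2455 and 3745 ± 786.6 bp (SD, n = 5 and 15, ratio 1.626, adjusted p = 0.0322, exact permutation test). Leaving out B6x129, B6xCAST or B6xPWK raised the adjusted p to between 0.0614 and 0.0842 at Cr2 and between 0.105 and 0.157 at Fcer2a, and leaving out B6xSPRET raised it to 0.057 at Fcer2a (exact permutation tests). With 50 kb on both sides it was 0.141 at Fcer2a in the same exact test.

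**Figure D3:**
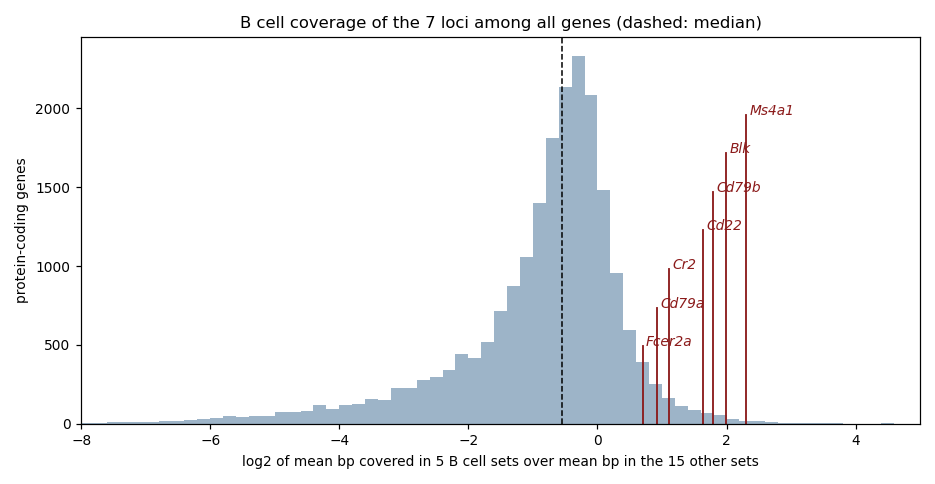
The histogram counts protein-coding genes (vertical axis) by the log2 ratio of mean bp covered in the 5 B cell sets to that in the 15 other sets (horizontal axis), for the 20811 genes with coverage in both groups, of which 10 lie beyond the axis. Red lines mark the 7 loci, all to the right of 0, with Fcer2a nearest to the bulk of genes and Ms4a1 farthest out, while the dashed median lies below 0.

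The mean number of hotspots was also higher in B cells at each locus. B cell sets had 12 to 22 hotspots at Cd79a, 11 to 23 at Cd79b, 20 to 40 at Blk, 10 to 39 at Cd22, 7 to 17 at Ms4a1, 6 to 16 at Cr2 and 7 to 18 at Fcer2a. The other sets had 8 to 19 at Cd79a, 6 to 22 at Cd79b, 9 to 18 at Blk, 6 to 11 at Cd22, 1 to 12 at Ms4a1, 2 to 6 at Cr2 and 4 to 12 at Fcer2a. Blk was the 1 member whose B cell sets all exceeded the other sets, which held for 0.107% of genes. By the exact permutation test, 6 of 7 members were called higher in B cells against 1.50% of genes, while 10755 of 21495 genes were called lower. Adjusted p ran from 0.000968 at Blk to 0.0195 at Cd79b (exact permutation tests). Cd79a, with 15.6 ± 3.847 hotspots in B cells and 11.8 ± 3.668 elsewhere (SD, n = 5 and 15), had an adjusted p of 0.139 in that test. Without B6xCAST or without B6xPWK, 3 members were called. B6x129 liver, with 19 hotspots at Cd79a, had more there than 4 of the 5 B cell sets.

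When the hotspots of all 20 sets were merged wherever they overlapped, the 7 windows held 208 regions, of which 47 were open in all 5 B cell sets. Over the genome 6.693% of regions were open in all 5 B cell sets and 3.767% in all 20 sets. All 20 sets shared 3 regions at Cd79a, 4 at Cd79b, 3 at Cd22, 2 at Cr2, 2 at Fcer2a and 5 at Blk, and none at Ms4a1. At Cd79b one of them, 6594 bp wide, ran from the start past the end of the gene, although kidney sets had no hotspot within 250 bp of that start. Several others lay at the starts of neighbouring genes (Rps19, Arhgef1, Cr1l, Fcor, Trappc5 and Fam167a).

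**Figure D4:**
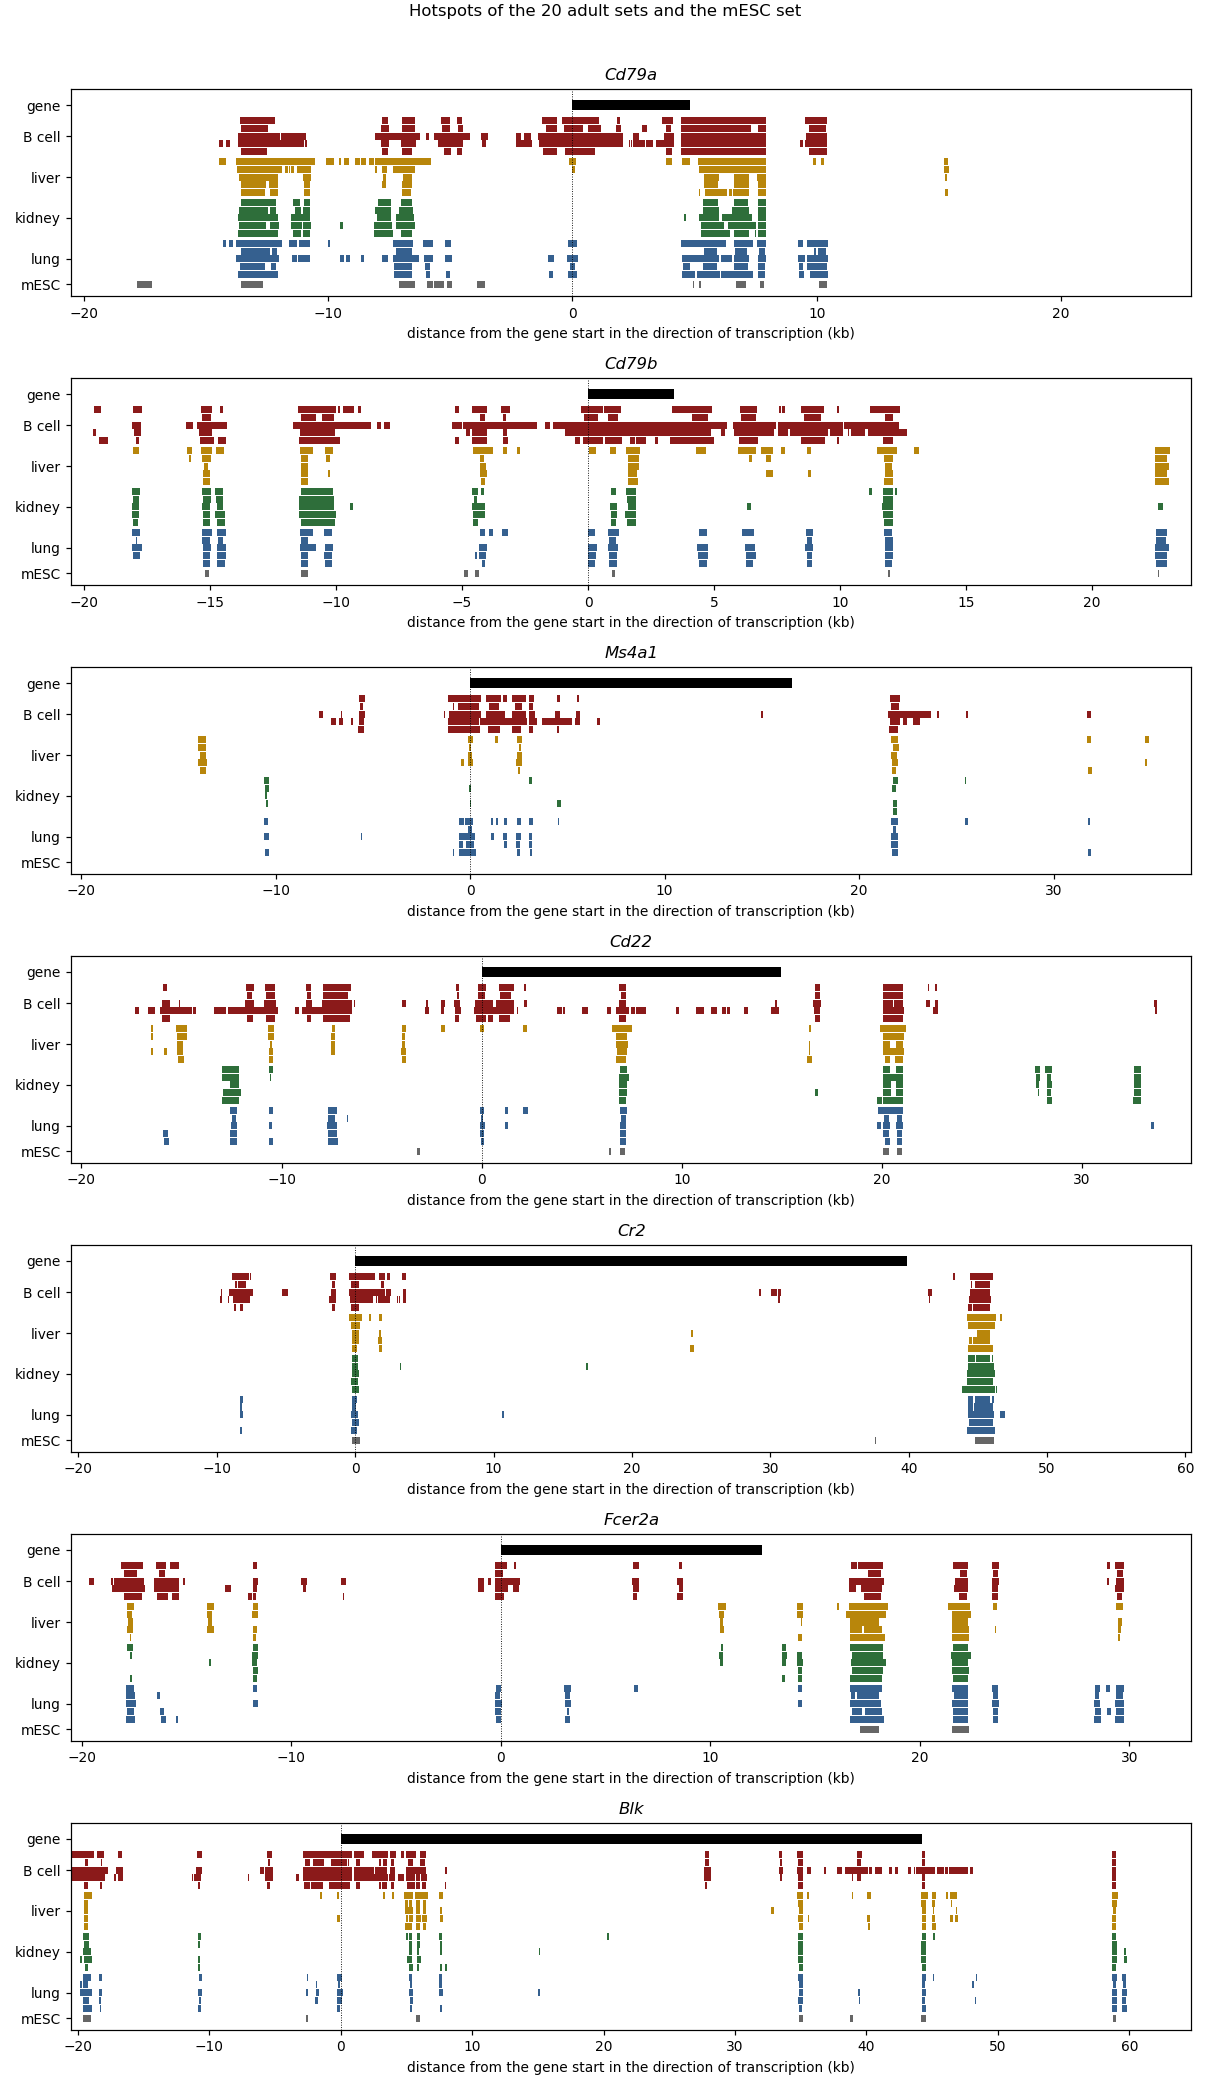
Bars show each hotspot by its distance from the gene start in kb (horizontal axis, in the direction of transcription) in 1 panel per gene, with 1 row per set, the hybrids of each tissue in the order B6x129, B6xC3H, B6xCAST, B6xPWK and B6xSPRET from top to bottom, the mESC set last, and the gene body in black. B cell rows have bars at all 7 starts, kidney rows have them at the starts of Cr2 and, in 2 sets, Ms4a1, and columns that run through all 20 sets number 0 at Ms4a1 and up to 5 at Blk.

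Only 4 regions, at Cd22, Cr2 and Blk, were open in each B cell set but in no organ set, which is 1.92% of the 208 regions where 0.334% of all 745754 regions had this pattern. Their sequences are given because these sites carried the B cell pattern at the authors' threshold. With hotspots at an FDR of 1% there were again 4 such regions, at Ms4a1, Cr2 and Blk, and the site of Cd22 was no longer among them. Each sequence is a window of 200 bases centred on the stretch shared by the 5 B cell sets, read from mm10 on the strand of the gene, with motifs in capitals as above.
Cd22, −1206 bp from the start, chr7:30881449-30881648: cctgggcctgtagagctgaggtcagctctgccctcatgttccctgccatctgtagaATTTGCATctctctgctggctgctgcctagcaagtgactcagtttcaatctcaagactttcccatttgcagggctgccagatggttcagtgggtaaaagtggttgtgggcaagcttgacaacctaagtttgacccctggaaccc
Cr2, −1582 bp from the start, chr1:195178199-195178398: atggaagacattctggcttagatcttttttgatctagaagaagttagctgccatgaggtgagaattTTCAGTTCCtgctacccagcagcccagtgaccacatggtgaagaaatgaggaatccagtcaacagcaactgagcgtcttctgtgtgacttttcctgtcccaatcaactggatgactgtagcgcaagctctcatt
Blk, intron, 27800 bp from the start, chr14:63389138-63389337: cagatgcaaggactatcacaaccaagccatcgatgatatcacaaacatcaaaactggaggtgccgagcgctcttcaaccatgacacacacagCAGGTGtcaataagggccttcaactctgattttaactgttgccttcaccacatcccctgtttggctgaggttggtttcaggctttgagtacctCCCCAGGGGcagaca
Blk, −5443 bp from the start, chr14:63422381-63422580: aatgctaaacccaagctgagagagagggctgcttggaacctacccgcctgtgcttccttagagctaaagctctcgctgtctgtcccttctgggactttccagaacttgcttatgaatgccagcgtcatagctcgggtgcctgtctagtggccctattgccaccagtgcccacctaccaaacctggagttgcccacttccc

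The Cd22 site, 304 bp wide, held an octamer, the sequence bound by OCT1 and OCT2, on the strand opposite to the gene. The octamer was found in 8.45% of 2450 windows of this kind across the genome, and in 2.39% of the 49677 windows at regions open in all 5 B cell sets. The Cr2 site, 482 bp wide, held an ETS-IRF composite on the opposite strand (12.7 and 8.98% of the same windows). The intronic Blk site, 580 bp wide, held an E-box (23.7 and 18.3%) and overlapping EBF cores (12.4 and 9.3%), and the upstream Blk site, 632 bp wide, held none of the 8 motifs. PU.1 letters (11.6 and 6.79%), ETS letters (0.367 and 1.89%), NF-kB letters (2.16 and 1.46%) and the TATA box (9.35 and 7.1%) were in none of the 4 windows. Scores differed widely between the B cell sets. The −log10 FDR ran from 1.938 to 7.511 at Cd22 and from 3.567 to 19.95 at Cr2. At Blk it ran from 2.697 to 34.81 at the intronic site and from 2.166 to the ceiling of 100 at the upstream site.

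A further 6 regions were open in all 5 B cell sets and, among the organs, in lung alone. The share of all regions with this pattern was not taken, so they are listed as a description. They were the Fcer2a start (5 lung sets), the inner Cd22 start (2), and upstream sites at −8.17 kb of Cr2 (4), −4.92 kb of Cd79a (3, and also the mESC set), −16 kb of Fcer2a (3) and −5.58 kb of Ms4a1 (1). Liver and kidney had sites of their own in the windows. At Cd22, regions 32.8 and 28.3 kb past the start were open in all 5 kidney sets and in no other tissue, and at Ms4a1 a region at −13.8 kb was open in all 5 liver sets alone. The second RefSeq promoter of Fcer2a was covered by a region of 304 bp that all 5 lung sets and no other set held.

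A difference in total coverage between lung and the other organs was not established at these loci. None of the 7 members was called by the exact permutation test over the 3003 choices of 5 of 15 sets, while 2.73% of genes were called higher in lung and 20.1% lower. The unadjusted p was below 0.05 for Fcer2a and Ms4a1. Fcer2a had 4371 ± 572.7 bp in lung and 3432 ± 700 bp in liver and kidney (SD, n = 5 and 10, p = 0.0333, adjusted p = 0.102, exact permutation test). Ms4a1 had 1657 ± 789.5 and 827.4 ± 542.9 bp (SD, n = 5 and 10, p = 0.038, adjusted p = 0.111, exact permutation test). Without the B6x129 liver set, Fcer2a was called (difference 1126 bp, adjusted p = 0.032, exact permutation test), and with the 75000 highest-scoring hotspots of each set both were. The remaining 5 members had adjusted p from 0.288 to 0.891 in the exact permutation test.

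The mESC set held 14 hotspots (4411 bp) at Cd79a, 8 (1016 bp) at Cd79b, 7 (2215 bp) at Blk, 5 (1043 bp) at Cd22, 4 (2000 bp) at Cr2 and 2 (1751 bp) at Fcer2a. Ms4a1 had no mESC hotspot and no CTCF peak in its window. B6xCAST B cells, of the same cross, had 15415, 22185, 22126, 8437, 8314, 9012 and 7467 bp at Cd79a, Cd79b, Blk, Cd22, Cr2, Fcer2a and Ms4a1. The mESC set is single and differed in overall size (115267 against 156078 hotspots), so these values have no replicate check.

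Other genes of the pathway moved in the same direction as the 7 in part. Of 16 genes for receptor signalling and co-receptors, 10 were called higher in bp covered and 0 lower, with a median difference of 4424 bp. Syk, the kinase that binds phosphorylated CD79, had 15815 ± 7283 bp in B cells and 4656 ± 2053 bp elsewhere, and Prkcb 17398 ± 6150 and 9125 ± 2718 bp (SD, n = 5 and 15, adjusted p = 0.00118 and 0.0116, exact permutation test). Cd81 (5253 ± 2325 and 7460 ± 3342 bp) and the phosphatase gene Ptpn6 (8386 ± 2443 and 9495 ± 3133 bp) had adjusted p of 0.278 and 0.623 in the exact permutation test. Of 12 other B cell surface genes 11 were called higher, among them Cxcr5, the chemokine receptor of follicles (21063 ± 7287 and 10049 ± 5342 bp), and Fcrl1 (10439 ± 2842 and 1961 ± 574.5 bp).

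Stage markers were more mixed. Among 8 genes of early B cell development, Il7r was called higher and Kit lower. Of 5 plasma cell genes, Jchain was called higher and Sdc1, also an epithelial gene, lower. Of 10 T and NK cell genes 2 were called higher and 1 lower, of 10 myeloid genes 2 and 1, and of 8 erythroid genes 1 and 3. No liver, kidney, lung or embryonic stem cell gene was called higher, and 4, 2, 3 and 3 of 5 were called lower. Over all genes 4.22% were called higher and 36.2% lower. The kidney and erythroid counts of genes called lower thus lay near the share of all genes.

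The windows of the 7 genes rose and fell together over the 20 sets, with Pearson r of log2(bp + 1) between 0.588 (Ms4a1 and Cr2) and 0.906 (Cd79b and Blk). These 20 values share set size as well as tissue, and r is given as a description. Among genes whose windows do not overlap, the nearest patterns were Cd244a (r = 0.9424) and Ly9 (0.9354) for Cd79a, and Ggnbp1 (0.9486) for Cd79b. They were Dthd1 (0.9272) and Ctla4 (0.9208) for Ms4a1, and Zcchc7 (0.9192) and Stpg2 (0.918) for Cd22. Blnk (0.9206) and Trim59 (0.9185) were nearest to Cr2, Rpa2 (0.9182) and Zbtb1 (0.9141) to Fcer2a, and Fcrl5 (0.9692) and Ubac2 (0.9689) to Blk.

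RNA-seq gave few counts at these genes. The 17 tables (5 of B cells and 4 each of liver, kidney and lung) summed to 283725 to 809337 expected counts, and Alb, normally among the most abundant liver transcripts, took only 0.0335 to 0.238% of the counts in liver. The libraries came from a stranded total RNA kit, and how strand was set in counting is not given in the sources used here. Whether it was set opposite to the kit, so that reads of the other strand were counted, was not tested. Moreover, exons of Cd22 overlap the antisense gene Gm29439 over 479 bp. The values are therefore not read as transcript levels. Cd79a had 14 to 33.6 CPM (expected counts scaled to 1e+06 per sample) in B cells (median 20.1), 5.22 to 10.4 in lung, up to 2.29 in kidney and 0 in liver. The B cell samples lay above all others. Cd79b had 7.87 to 30.9 CPM in B cells, 45 counts in all, and 0 in the 12 other samples. With a chosen floor of 3 counts over those 12 samples in place of 0, the ratio of CPM pooled over samples was 28.5. That ratio rests on the floor and describes counts only. Cd22 had 37 counts in B cells (7.01 to 22.2 CPM) and 3 elsewhere, Ms4a1 27 (3.71 to 28.1 CPM) and 2, and Blk 14 (2.23 to 14 CPM) and 2. Every B cell sample exceeded every other sample at Cd22, whereas at Ms4a1 1 lung sample and at Blk 2 liver samples overlapped with B cells. The share of all genes with B cell samples above all others was not taken, so the separations at Cd79a, Cd79b and Cd22 are a description.

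These 5 genes did not pass the filter on low counts, so edgeR tested 2 members of the 4479 genes kept. Fcer2a was higher in B cells, at 33.4 to 63.1 CPM against 0 to 34.2 (log2 fold change 1.43, SE 0.37, adjusted p = 0.0017), where 32.8% of genes were called higher. Cr2 was lower, at 19.8 to 109 CPM against 18.6 to 168 (log2 fold change −0.90, SE 0.328, adjusted p = 0.0205), where 30.1% were. Lung had the most Cr2 counts (49 to 168 CPM). The Cr2 call was lost with library sizes as the scale (log2 fold change −0.21, adjusted p = 0.637), a setting that moved the median of all genes from 0.01 to 0.67 on the log2 scale and the share of calls that were higher from 52.1 to 68.2%. Without the filter, edgeR tested 28412 genes and called 11.1% higher. Of the 7, Cd79a, Cd79b, Ms4a1, Cd22, Fcer2a and Blk were among them (adjusted p from 2.1e-09 at Cd79b to 0.00417 at Blk), and Cr2 had an adjusted p of 0.0984. Samples of different hybrids came from different mice, but nothing says so for samples of the same hybrid and tissue. These p-values measure the spread between samples, which holds differences between hybrids, and the hybrids were not balanced between B cells and organs.

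**Figure D5:**
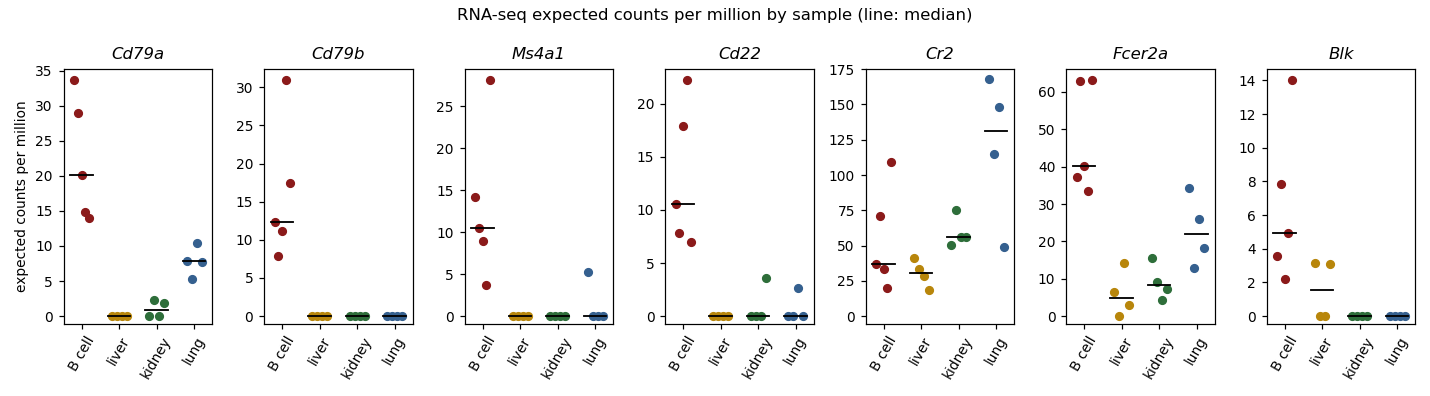
Points give CPM (vertical axis) of the 7 genes in each of the 17 RNA-seq samples by tissue, and lines the median. B cell points lie above all others at Cd79a, Cd79b and Cd22, and at Cr2 they overlap with every organ.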

How the data were processed

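DNase-seq, CTCF ChIP-seq and RNA-seq were performed on F1 hybrid mice and mESCs. For DNase-seq the authors trimmed reads with Trimmomatic, aligned them with BWA to mm10 and kept unique reads of the autosomes and the X. Libraries of the same hybrid and tissue were then merged, and hotspot2 was run at an FDR of 5%. The deposited sets give positions and a −log10 FDR with a ceiling of 100, used here to rank and filter. For RNA-seq the authors aligned with STAR and quantified with RSEM, and the deposited tables give each gene's expected count, not normalized, and TPM.

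The members and gene lists were chosen with earlier results of these data known. Gene positions were taken from GENCODE vM21. Hotspots overlapping a gene body with 20 kb on both sides were counted, and their bp summed, for 21755 protein-coding genes. The exact permutation test (two-sided, the smaller tail doubled) compared mean values over sets, with Benjamini-Hochberg adjustment over all genes with a hotspot and a threshold of 0.05. The smallest p it can give is 0.000129 for 5 of 20 sets and 0.000666 for 5 of 15. Other genes named were the 2 of highest Pearson r to each member over log2(bp + 1), and from each list those with the largest differences. A gene named by this rule is not reported here. For RNA, edgeR's quasi-likelihood test with Benjamini-Hochberg adjustment compared B cells with the mean of 3 tissues (rounded expected counts, TMM, filterByExpr). Alternatives included DESeq2 and limma fits to log2(TPM + 1). The permutation and edgeR scripts were tested on simulated data. Read depth was not used for hotspot sets. Software was Python 3.11.15, numpy 2.4.6, matplotlib 3.10.9, R 4.3.3, edgeR 4.0.16, DESeq2 1.42.0 and limma 3.58.1. Sequences are from RefSeq and mm10, and a motif match is a description only.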

Additional observations from a re-analysis of the deposited data

Results flagged for a closer look

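Each group of 5 sets was searched for a set far from the other 4, over number and coverage at 7 loci in 4 tissues (56 groups), and 3 values were found by Dixon's criterion, which chance alone exceeds in about 1 of 20 groups. At Cd79b, B6x129 liver had 22 hotspots where the other liver sets had 6 to 10, and 7655 bp covered where they had 1840 to 2622 bp. B6x129 liver was also the set with the most hotspots. At Blk, B6xCAST B cells had 40 hotspots where the other B cell sets had 20 to 25, and B6xCAST was the largest B cell set.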

How the results depend on the processing

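Over 13 alternatives, the bp covered at the 7 loci stayed higher in B cells in each, and 4 to 7 members were called. Leaving out 1 hybrid at a time gave 4 to 7 members (lowest without B6xPWK), with 412 to 981 genes called higher and 5300 to 6841 lower. The 75000 highest-scoring hotspots of each set gave 2817 genes higher and 3278 lower, and bp per Mb of the set 7767 and 4282, with all 7 members called in both. The hotspot number called 3 members with 50 kb flanks, and 3 to 6 without 1 hybrid (154 to 279 genes higher and 7543 to 9460 lower). It gave 4389 genes higher and 2768 lower with the top hotspots, and 6644 lower over gene bodies. In the lung comparison, the top hotspots called 2 members and 1253 genes higher, gene bodies 887, 50 kb flanks 389, and the fits without 1 hybrid 0 members, 164 to 381 genes higher and 1628 to 3842 lower. Without the B6x129 liver set, added after the data were seen, 1 member was called. Without 1 hybrid, differences at Cr2 ran from −305.6 to 33.88 bp and at Blk from −238.2 to 468.4 bp. Differences that changed sign there, none of them called, were those of Blk over its gene body (−666.4 bp) and without B6xCAST (−238.2 bp), Cd79b with 50 kb flanks (−248.9 bp), and Cr2 without B6x129 (33.88 bp), B6xC3H (19.12 bp) or the B6x129 liver set (41.2 bp).

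The strict start pattern was met by 0 members and 11 genes. It was met by 5 genes with 1 kb on each side, 6 with the start of any transcript, 12 to 21 without 1 hybrid (0 members), 1 member (Cd22) and 112 genes with the top hotspots, and 5 members and 178 genes with kidney alone as the other tissue (added after the data were seen). Regions of B cells alone numbered 14 in the windows (9651 in all) with the top hotspots, 5 to 8 (2720 to 4349) without 1 hybrid, as fewer sets must agree, and 7 without the B6x129 liver set. The RNA test called 6 members, 3140 genes higher and 2186 lower without a filter. Library sizes made 68.2% of calls higher and log2(TPM + 1) 63%, where the fit reported had 52.1%. The Cr2 call was also lost in 4 of the 17 fits without 1 sample. With a hybrid block, the same number of members was called in each hotspot comparison. No paired analysis was possible because replicate numbers do not join groups, beyond that block. The causes were not tested. Pooled sets hide replicate error, and unequal set sizes limit any statement on a missing hotspot.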
